A study of Mus musculus with 11 samples.

Results

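Complement is an innate defence system of plasma proteins and cell-surface receptors. The 8 genes described here, C1qa, C1qb, C1qc, C3, C3ar1, C5ar1, Cfb and Cfp, were taken by name from the deposited expression table. All 8 were present among its 12932 genes. The table holds bulk RNA-seq of sorted mouse alveolar macrophages (AMs). Control libraries (4) came from mature AMs (mAMs, CD11b-/SiglecF+) of CD11cCre- Rxrabfl/fl mice, which carry floxed Rxra and Rxrb without Cre. RXR-deficient mAMs (4 libraries) and RXR-deficient immature AMs (ImmAMs, CD11b+/SiglecF+, 3 libraries) came from CD11cCre+ Rxrabfl/fl mice, in which Cre is driven by Cd11c, a gene that AMs and dendritic cells express. Rxra and Rxrb encode retinoid X receptors, nuclear receptors that bind DNA mostly as partners of other nuclear receptors. The mice were 9 weeks old, of the C57BL/6J strain and of either sex, with no sex given per library, and the methods name 40000 cells per library. No ImmAMs of control mice were in the table. A difference between ImmAMs and control mAMs therefore joins population and genotype, which cannot be told apart in it, while ImmAMs and RXR-deficient mAMs share 1 genotype.

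The cascade can start along separate routes. The classical route begins with C1q, which is built from the chains that C1qa, C1qb and C1qc encode and which binds antibody complexes, dying cells and other surfaces. Every route cleaves C3, the central protein. The alternative route builds its C3-cleaving enzyme from C3b and factor B (Cfb), and properdin (Cfp) stabilises that enzyme. Cleavage of C3 and C5 releases the peptides C3a and C5a, whose receptors are encoded by C3ar1 and C5ar1. Liver makes most plasma complement, and many tissue macrophages make C1q.

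Libraries held 16659960 to 37873532 reads. Values are CPM, read counts scaled for library size, and the deposited CPM include 0.5 read, so a gene with no read in a library is listed slightly above 0. Differences were tested with limma on log2 CPM over 12889 genes in 10 libraries. RXR-deficient mAM replicate 4, which the study's lists of changed genes do not include, was left out of this fit, and its value is given beside the others. Against control mAMs, 624 genes passed an adjusted p of 0.05 in RXR-deficient mAMs and 6194 in ImmAMs, and 4891 differed between ImmAMs and RXR-deficient mAMs. The first of these counts was unstable, at 338 with all 11 libraries and 163 to 861 with 1 library left out. Rxra lay between 310 and 380 CPM in control mAMs, between 334 and 419 CPM in RXR-deficient mAMs and between 283 and 305 CPM in ImmAMs. Rxrb lay between 51.4 and 72.1, between 39.3 and 55.3 and between 31.9 and 35.2 CPM. Reads over a whole gene do not show whether the floxed part was deleted. Of the genes behind the gate, Itgam (CD11b) followed the labels, at 3.52 to 3.85 CPM in control mAMs and 168 to 174 CPM in ImmAMs. Siglecf did not, since both populations are labelled SiglecF+, yet it was at 244 to 264 CPM in control mAMs and 19.3 to 19.7 CPM in ImmAMs.

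Against control mAMs, ImmAMs had higher C1qa, C1qb, C1qc and C3ar1 and lower C3 and C5ar1. Cfb and Cfp did not pass the test in that comparison. Of the 8 members, 4 were called higher, where 22.8% of all genes tested were, and 2 were called lower, where 25.3% were. In total 48.1% of the genes tested were called in that comparison. Against RXR-deficient mAMs, the same 4 members were higher in ImmAMs, with 17.7% of all genes called higher. C3, C5ar1 and Cfp were lower there, with 20.2% of all genes called lower and 37.9% called in either direction. C3, C5ar1, Cfb and Cfp passed the filter on low values with the mAM libraries alone, whereas the 3 C1q genes and C3ar1 passed it only through the ImmAM libraries.

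**Figure D1:**
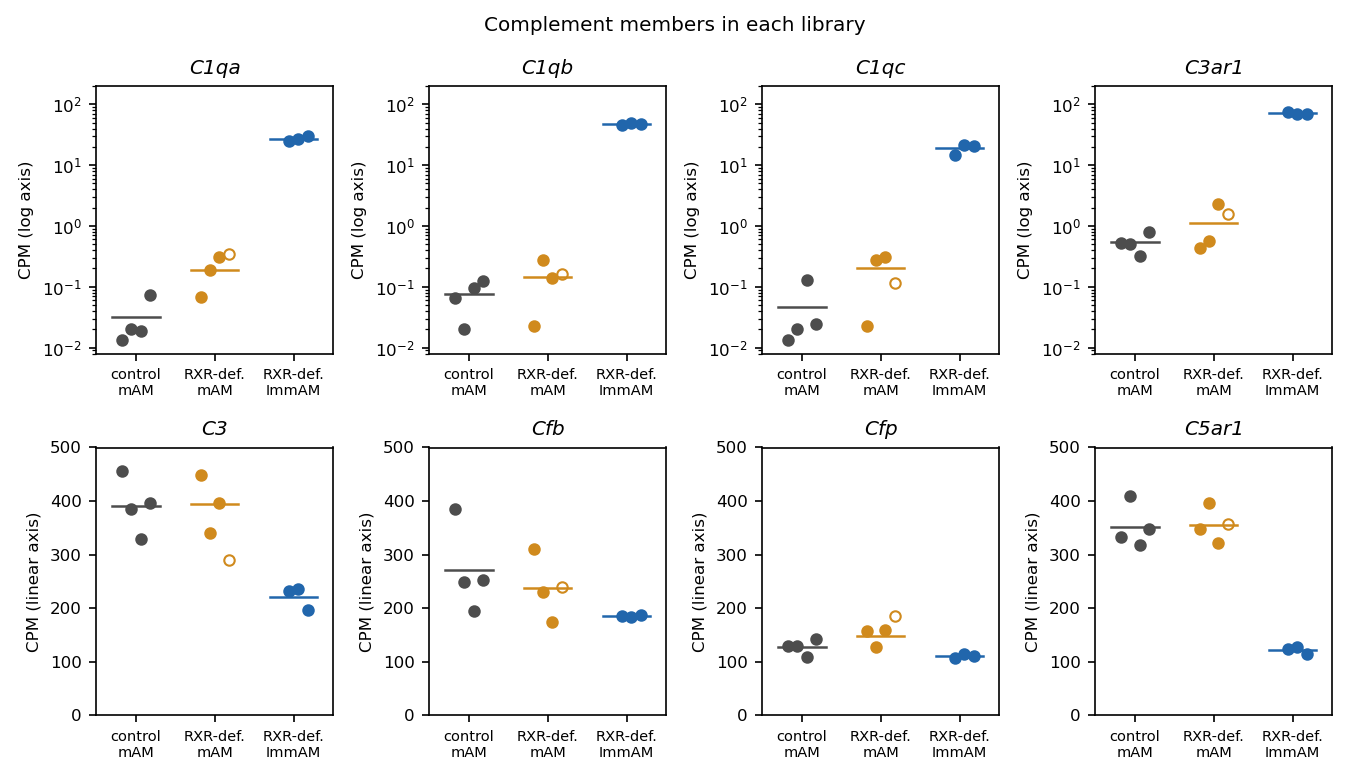
CPM of the 8 members in each library of control mAMs, RXR-deficient mAMs and RXR-deficient ImmAMs. Points are libraries, bars are group means, the open point is RXR-deficient mAM replicate 4 (not fitted), and the upper row has a log axis. C1qa, C1qb, C1qc and C3ar1 were above 14 CPM in each ImmAM library and below 2.5 CPM in each mAM library, while C3 and C5ar1 lay lower in the 3 ImmAM libraries than in every mAM library.

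The 3 C1q genes lie side by side on the minus strand of chromosome 4 (GRCm38), C1qb at chr4:136880129-136886187, C1qc at chr4:136889804-136893065 and C1qa at chr4:136895917-136898803. The gaps between neighbouring gene bodies are 3617 and 2852 bases. Because these genes moved together, the sequence before the RefSeq start of C1qb and C1qc (GRCm38.p6, minus strand, 5′ to 3′) is shown, without the bases that lie in a GENCODE exon. RefSeq gave a window for 6 of the 8 members, and C1qa and Cfb had no entry. The capitals mark 3 short cores searched on both strands: AGGTCA (nuclear receptors), TGCTGA (Maf proteins) and GAGGAA (PU.1).
C1qb, chr4:136886201-136886450: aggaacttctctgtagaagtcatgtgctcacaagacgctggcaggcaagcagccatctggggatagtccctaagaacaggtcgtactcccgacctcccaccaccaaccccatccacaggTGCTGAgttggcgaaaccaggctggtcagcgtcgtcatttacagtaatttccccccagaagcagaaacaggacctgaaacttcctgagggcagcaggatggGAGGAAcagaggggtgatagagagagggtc
C1qc, chr4:136893066-136893164: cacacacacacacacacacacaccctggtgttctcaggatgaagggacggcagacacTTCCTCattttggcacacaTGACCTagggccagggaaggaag
The C1qb window held TGCTGA at 126 to 131 bases and GAGGAA at 25 to 30 bases before the start. The C1qc window held the reverse complements of GAGGAA at 188 to 193 bases and of AGGTCA at 169 to 174 bases. Among the 32851 windows of 250 bases in the table, 14.0% held AGGTCA, 16.1% TGCTGA and 23.3% GAGGAA, so these cores are common. Repeats of AGGTCA in the same direction with 1 base between them, the arrangement that RXR pairs are known to bind, were found in 11 of these windows (0.0335%) and in none of the 6 windows of members.

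C1qa was at 24.5, 27.3 and 29.8 CPM in the 3 ImmAM libraries. Control mAMs had 0, 0, 0 and 1 read of C1qa, or 0.0132 to 0.0737 CPM. RXR-deficient mAM replicates 1 to 4 had 1, 4, 5 and 7 reads, or 0.0692, 0.191, 0.305 and 0.344 CPM. The ImmAM libraries thus stood far above every mAM library, and no mAM library held more than 7 reads of this gene. On the log2 CPM scale the difference from control mAMs was 10.11 ± 0.84 (SE; adjusted p = 5.61e-07) and that from RXR-deficient mAMs 7.41 ± 0.90 (adjusted p = 2.79e-05).

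C1qb was the most abundant C1q chain, at 45.8, 49.7 and 48.0 CPM in ImmAMs. Control mAMs had 2, 0, 2 and 2 reads (0.0201 to 0.123 CPM), and RXR-deficient mAM replicates 1 to 4 had 0, 6, 2 and 3 reads (0.0231 to 0.276 CPM). The ranges of control and RXR-deficient mAMs overlapped, and ImmAMs lay above both. The log2 difference of ImmAMs was 9.58 ± 0.88 from control mAMs (adjusted p = 1.40e-06) and 8.96 ± 0.94 from RXR-deficient mAMs (adjusted p = 7.88e-06).

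C1qc was at 14.7, 21.6 and 20.7 CPM in ImmAMs, with replicate 2 the lowest. Control mAMs had 0, 0, 3 and 0 reads (0.0132 to 0.131 CPM), and RXR-deficient mAM replicates 1 to 4 had 0, 6, 5 and 2 reads (0.0231 to 0.305 CPM). Here too the mAM groups overlapped and ImmAMs stood above them. ImmAMs differed by 9.27 ± 1.09 from control mAMs (adjusted p = 1.48e-05) and by 7.23 ± 1.17 from RXR-deficient mAMs (adjusted p = 0.000316) on the log2 scale.

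Because so few reads stand on the mAM side, the fitted log2 differences of the C1q genes depend on the 0.5 read in the deposited values. With 1 CPM added, the differences from control mAMs became 4.77 for C1qa, 5.50 for C1qb and 4.24 for C1qc, all still past the threshold. Summed reads give ratios with their counting error. ImmAM libraries held 1566 reads of C1qa, 2753 of C1qb and 1105 of C1qc, and control mAM libraries 1, 6 and 3. Scaled by library size, C1qb was 878 times as high in ImmAMs as in control mAMs (95% exact interval 403 to 2393). For C1qa, with 1 control read, this ratio was 2995 (537 to 1.18e+05), and for C1qc, with 3 control reads, 704 (240 to 3421). Without control replicate 1 the ratios of C1qa and C1qc were 1962 and 461. The single C1qa read was in control replicate 4 and the C1qc reads all in control replicate 3, so that without that library no read was left. Against RXR-deficient mAM replicates 1 to 3, which held 10, 8 and 11 reads, the ratios were 173 (93.6 to 361) for C1qa, 379 (192 to 880) for C1qb and 111 (61.65 to 222.5) for C1qc. These intervals cover counting error only. In a control library without a read, 3 reads, the limit that a count of 0 allows, would be 0.0793 to 0.147 CPM.

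Per kilobase of exon, the chains kept nearly the same proportions in the ImmAM libraries. C1qb made up 52.8 to 57.5% of the length-scaled C1q signal, C1qa 31.6 to 34.3% and C1qc 10.4 to 13.4%. The ratio of C1qb to C1qa was 1.54 to 1.79, and that of C1qc to C1qa was 0.323 to 0.425. The chains assemble in equal numbers in the protein. The annotated exons of C1qc add up to 1931 bases, against 1040 for C1qa and 1088 for C1qb, and the table does not say which isoforms were present. In mAMs, 0 to 16 C1q reads per library were too few for such proportions.

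C3ar1, the receptor for C3a, has 2 annotated exons at chr6:122847138-122856161 on the minus strand. Its window is shown as that of the other member that stood near 0 in mAMs and rose in ImmAMs.
C3ar1, chr6:122856162-122856407: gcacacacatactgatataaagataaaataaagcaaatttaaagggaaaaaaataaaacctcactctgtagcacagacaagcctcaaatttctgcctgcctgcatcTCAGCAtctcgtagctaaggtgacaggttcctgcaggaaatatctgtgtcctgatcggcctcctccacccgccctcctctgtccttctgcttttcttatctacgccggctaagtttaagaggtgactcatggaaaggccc
It held the reverse complement of TGCTGA at 139 to 144 bases before the start and neither of the other cores. C3ar1 was at 75.7, 68.3 and 68.7 CPM in ImmAMs, where it had the highest CPM of the members that rose. Control mAMs were at 0.515, 0.503, 0.319 and 0.810 CPM (55 reads in all). RXR-deficient mAM replicates 1 to 4 were at 0.439, 0.574, 2.30 and 1.58 CPM. Replicates 3 and 4 of the RXR-deficient mAMs lay above every control library and replicates 1 and 2 within the control range. The difference of ImmAMs from control mAMs was 7.12 ± 0.49 (adjusted p = 9.70e-08) and from RXR-deficient mAMs 6.41 ± 0.52 (adjusted p = 8.61e-07). Summed reads gave ratios of 141 (108 to 187) and 70.8 (55.2 to 92.3).

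C5ar1, the receptor for C5a, went the other way. It lies at chr7:16246743-16259540 on the minus strand. Its window, which overlaps an annotated C5ar1 exon and is not shown, held TGCTGA at 12 to 17 bases before the start. Control mAMs were at 333, 409, 318 and 348 CPM, RXR-deficient mAM replicates 1 to 4 at 348, 396, 322 and 358 CPM, and ImmAMs at 123, 127 and 114 CPM. Each ImmAM library lay below each mAM library, and the mAM groups covered nearly the same range. C5ar1 was 2.89-fold lower in ImmAMs than in control mAMs (log2 difference -1.53 ± 0.09, adjusted p = 3.05e-08) and 2.93-fold lower than in RXR-deficient mAMs (-1.55 ± 0.10, adjusted p = 1.08e-07). Per kilobase, the ratio of C3ar1 to C5ar1 was 0.000599 to 0.00139 in control mAMs, 0.000752 to 0.00426 in RXR-deficient mAMs and 0.322 to 0.368 in ImmAMs. C5ar1 thus exceeded C3ar1 in all 11 libraries.

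**Figure D2:**
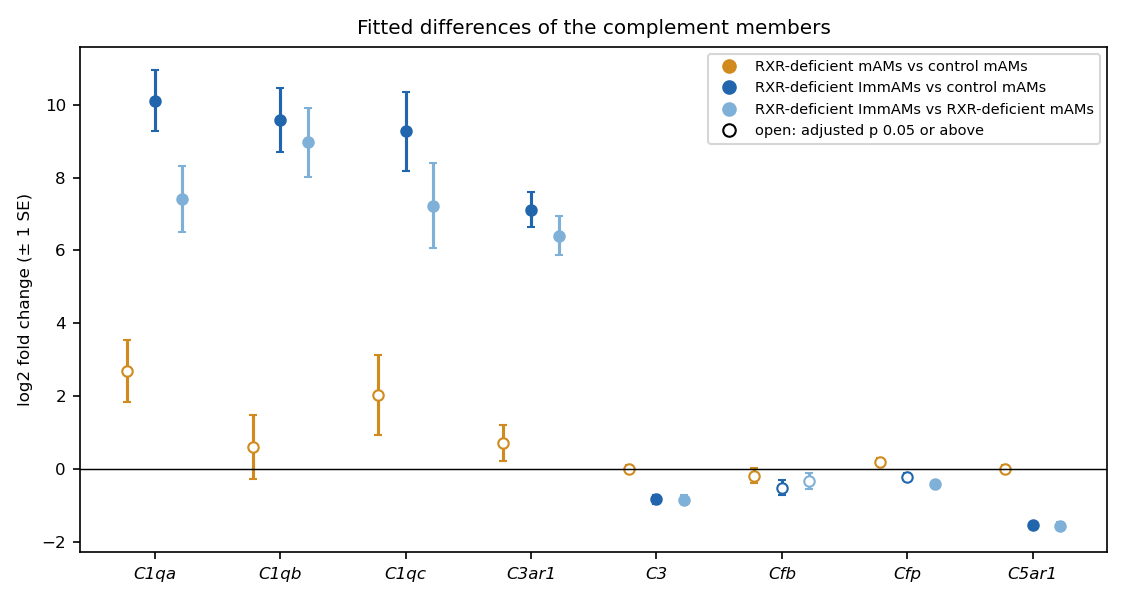
Fitted log2 differences of the 8 members in the 3 comparisons, with bars of 1 SE either way. Filled points passed an adjusted p of 0.05 in limma. The C1q genes and C3ar1 reached log2 differences of 6.41 to 10.11 in ImmAMs, C3 and C5ar1 lay below 0 against both mAM groups, and no point of RXR-deficient mAMs against control mAMs is filled.

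C3 encodes the protein on which all routes converge. It lies at chr17:57203970-57228136 on the minus strand, and its window is shown because it, like C5ar1, moved opposite to the C1q genes.
C3, chr17:57228137-57228386: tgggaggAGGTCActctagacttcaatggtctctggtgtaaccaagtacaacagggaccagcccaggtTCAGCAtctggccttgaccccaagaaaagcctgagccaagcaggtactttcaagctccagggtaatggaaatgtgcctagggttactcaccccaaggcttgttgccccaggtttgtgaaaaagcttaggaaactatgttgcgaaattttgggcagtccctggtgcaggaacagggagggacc
It held AGGTCA at 238 to 243 bases and the reverse complement of TGCTGA at 177 to 182 bases before the start. C3 was at 455, 385, 330 and 395 CPM in control mAMs, at 448, 340, 397 and 289 CPM in RXR-deficient mAM replicates 1 to 4, and at 231, 235 and 195 CPM in ImmAMs. ImmAMs lay below every mAM library, of which the lowest was the RXR-deficient replicate 4. C3 was 1.77-fold lower in ImmAMs than in control mAMs (log2 difference -0.82 ± 0.12, adjusted p = 6.46e-05) and 1.79-fold lower than in RXR-deficient mAMs (-0.84 ± 0.12, adjusted p = 0.000146).

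Cfb lies at chr17:34856374-34862518, 86 bases from C2, its counterpart in the classical route. Control mAMs were at 385, 249, 194 and 253 CPM, RXR-deficient mAM replicates 1 to 4 at 310, 231, 173 and 240 CPM, and ImmAMs at 185, 183 and 187 CPM. The spread was wide in mAMs, with a coefficient of variation of 30.0% in controls and 28.9% in RXR-deficient replicates 1 to 3, against 0.905% in ImmAMs. ImmAMs lay below the lowest control library but within the range of RXR-deficient mAMs. The difference from control mAMs was -0.50 ± 0.20 (adjusted p = 0.0611). Over 25 alternative settings it ranged from -0.64 to -0.31, and 5 of them put it past the threshold (adjusted p 0.0150 to 0.150). Against RXR-deficient mAMs it was -0.32 ± 0.22 (adjusted p = 0.274). Of the 60-base windows in Cfb transcripts, the length of the reads, 71.7% also occur in Gm20547, an annotated gene that overlaps Cfb on the same strand and was not in the table, so reads could be split between them. The other 7 members shared no such window with another gene.

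Cfp is X-linked, at chrX:20925454-20931555, and encodes properdin, which is made largely by leukocytes. Its window held none of the cores searched. Cfp was at 130, 130, 109 and 143 CPM in control mAMs, at 157, 128, 159 and 185 CPM in RXR-deficient mAM replicates 1 to 4, and at 107, 114 and 111 CPM in ImmAMs. ImmAMs overlapped the lower end of the control range and lay below every RXR-deficient mAM library. Cfp was 1.33-fold lower in ImmAMs than in RXR-deficient mAMs (log2 difference -0.41 ± 0.10, adjusted p = 0.00719), a difference under the fold of 1.5 tried as a further limit. The difference from control mAMs was -0.20 ± 0.10 (adjusted p = 0.104), and -0.28 (adjusted p = 0.0259) without control replicate 3, the lowest control library.

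Levels of different genes were set side by side per kilobase of exon. In control mAMs C5ar1 was the highest member (137 CPM per kb), followed by Cfb (95.6), C3 (76.1) and Cfp (73.6). The ranges of Cfb, C3 and Cfp overlapped, as did those of C5ar1 and Cfb. C3ar1 (0.125), C1qb (0.0696), C1qa (0.0302) and C1qc (0.0245) formed a group far below, within which ranges also overlapped. In ImmAMs the order was Cfb (65.5), Cfp (63.7), C5ar1 (47.1), C1qb (44.0), C3 (42.9), C1qa (26.2), C3ar1 (16.5) and C1qc (9.84). Cfb and Cfp could not be separated by their spread, nor could C5ar1, C1qb and C3, whereas C1qa, C3ar1 and C1qc had ranges of their own. C1qb, which in control mAMs was above 1.41% of all genes per kilobase, was above 92.6% of them in ImmAMs. C5ar1 was above 97.4% and 93.1%, and C3 above 95.3% and 92.4%, so both stayed among the abundant transcripts.

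**Figure D3:**
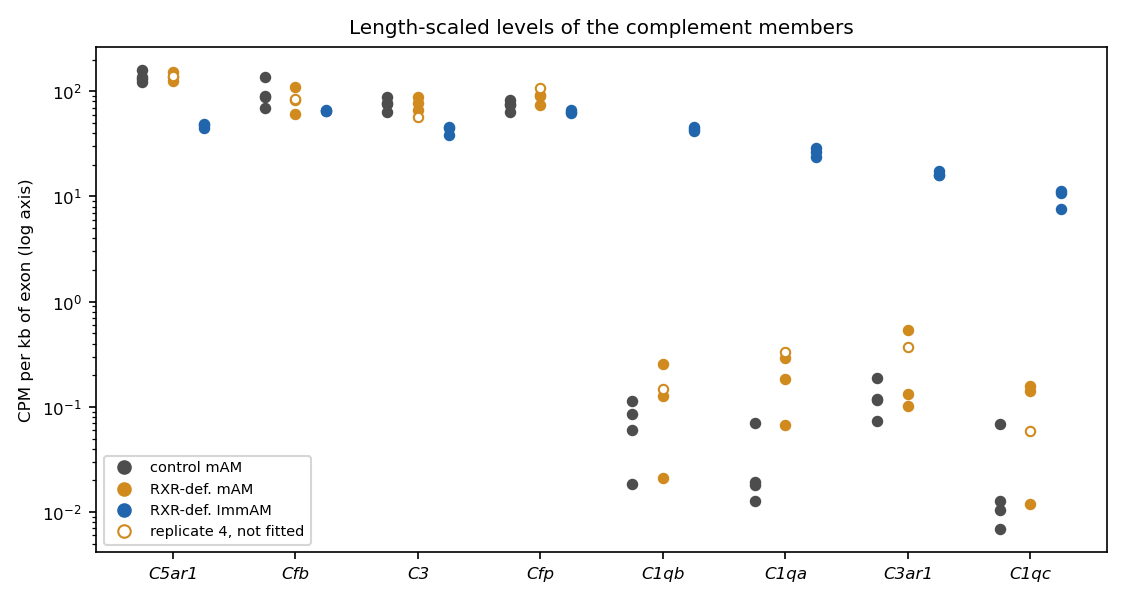
CPM per kilobase of annotated exon for the 8 members, on a log axis. Points are libraries, and the open points are RXR-deficient mAM replicate 4. In mAMs the members fell into an abundant group (C5ar1, Cfb, C3, Cfp) and a group below 1 CPM per kb, while in ImmAMs all 8 lay between 7.61 and 66.1 CPM per kb.

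Between RXR-deficient and control mAMs, none of the 8 members passed the test in limma, where 4.84% of all genes did (2.25% higher, 2.59% lower), a share that rests on the unstable count of 624 genes. At an unadjusted p under 0.05 there was 1, C1qa. Its log2 difference was 2.69 ± 0.84 (adjusted p = 0.0801), and edgeR and DESeq2, run on the reads recovered from the CPM, called it (adjusted p = 0.0423 and 0.0133). That call rests on 10 reads in 3 RXR-deficient libraries and 1 read in 4 control libraries, a ratio of 17.4 (2.47 to 753). With replicate 4, RXR-deficient mAMs held 17 reads and the ratio was 21.9 (3.44 to 916). The differences of C1qc and C1qb were 2.04 ± 1.09 (adjusted p = 0.280) and 0.62 ± 0.88 (adjusted p = 0.709). That of C1qb turned to -0.15 without RXR-deficient replicate 2. For C3ar1 the difference was 0.71 ± 0.49 (adjusted p = 0.400) with replicate 3 and -0.02 without it. The abundant members were close between the mAM groups: C3 differed by 0.01 ± 0.12, C5ar1 by 0.02 ± 0.09, Cfb by -0.18 ± 0.21 and Cfp by 0.21 ± 0.10, with adjusted p of 0.955, 0.934, 0.636 and 0.216. The mean level in RXR-deficient mAMs was 0.692% of that in ImmAMs for C1qa, 0.305% for C1qb, 1.06% for C1qc and 1.56% for C3ar1. In bulk libraries, more cells that express a gene and more RNA per cell cannot be told apart.

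Other complement genes were taken from a list ordered by role. Of 51 such genes besides members, 19 were in the table, and 32 were not, among them C1s1, Cfd, Cfi, Serping1, Hc and Vsig4. Between ImmAMs and control mAMs 9 of the 19 were called higher and 5 lower (73.7% against 48.1% of all genes), with a median log2 difference of 0.25 against 0.00 over all genes. Between ImmAMs and RXR-deficient mAMs 6 were higher and 5 lower (57.9% against 37.9%, median 0.58 against -0.01). Between RXR-deficient and control mAMs 5 were higher and 0 lower (26.3% against 4.84%, median 0.14 against 0.00). Without Itgam, whose product was part of the sorting gate, 8 of 18 were higher and 5 lower (72.2%) in the first comparison, 5 and 5 (55.6%) in the second, and 4 and 0 (22.2%) in the third.

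Among genes that start or feed the cascade, Colec12, a collectin with a membrane anchor, was at 26.2 to 36.6 CPM in control mAMs, 32.6 to 58.3 CPM in RXR-deficient mAMs and 380 to 395 CPM in ImmAMs. It was higher in ImmAMs than in control mAMs by 3.72 ± 0.15 (adjusted p = 9.66e-10). C1ra, a protease that C1q activates, was lower in ImmAMs (-0.36 ± 0.09, adjusted p = 0.00595), at 45.0 to 50.9 CPM against 60.1 to 62.3 CPM. C4b, which supplies a part of the classical C3 convertase, was at 19.1 to 25.3 CPM in ImmAMs and 2.03 to 4.98 CPM in control mAMs, a difference of 3.05 ± 0.29 (adjusted p = 2.21e-06). C4b and C4a are near-identical copies, so reads may have been split between them. C2 was higher in ImmAMs as well, by 1.26 ± 0.23 (adjusted p = 0.000578), at 5.07 to 6.98 CPM against 2.11 to 2.76 CPM. Gm20547, which overlaps Cfb, also overlaps C2 on the same strand. Windows shared between Gm20547 and C2 were not counted, so reads of C2 may have been split as well. C2, C4b and the C1q genes were therefore higher in ImmAMs, while C1ra and C3 were lower and C4a and Cfb did not pass. C8g, at 1.13 to 1.92 CPM in ImmAMs, was the only terminal-pathway gene in the table.

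Among inhibitors that act at the membrane, Cd46 was at 2.48 to 3.61 CPM in ImmAMs against 1.03 to 1.65 CPM in controls (1.26 ± 0.29, adjusted p = 0.00303). Cr1l was at 106 to 112 CPM against 84.8 to 99.2 CPM in controls (0.21 ± 0.08, adjusted p = 0.0350). Of 25 alternatives, 8 lost that call, 5 of them by leaving out 1 library (each ImmAM library, or control replicate 2 or 4). Neither gene passed between ImmAMs and RXR-deficient mAMs. There Cd46 differed by 0.58 ± 0.31 (adjusted p = 0.157) and Cr1l by 0.01 ± 0.08 (adjusted p = 0.913).

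Among receptors, C5ar2, whose gene begins 2589 bases from that of C5ar1, was lower in ImmAMs as well, at 19.7 to 25.6 CPM against 33.5 to 43.1 CPM in control mAMs (-0.79 ± 0.11, adjusted p = 7.68e-05). Cd93, once described as a receptor for C1q, was at 599, 582 and 560 CPM in ImmAMs and 27.1 to 55.7 CPM in control mAMs (3.88 ± 0.30, adjusted p = 2.59e-07). Itgb2, the shared chain of complement receptors 3 and 4, was 1.33-fold lower in ImmAMs (-0.41 ± 0.06, adjusted p = 0.000158), and Calr, a C1q-binding chaperone, was 1.23-fold lower (-0.29 ± 0.07, adjusted p = 0.00277). Itgax, the CD11c chain, was called lower against control mAMs (-0.19 ± 0.07, adjusted p = 0.0389), but 11 of 25 alternatives lost that call. Among them were the fits without any 1 ImmAM library or control replicate 1, 2 or 3. Against RXR-deficient mAMs, Itgax was lower by -0.33 ± 0.07 (adjusted p = 0.00375), a call kept in 25 of 25 alternatives. Itgam was part of the sorting gate, so its difference is no finding. Lrp1 (2631 to 3601 CPM over all libraries), Lair1 (101 to 164 CPM) and C1qbp (43.8 to 52.8 CPM) passed the test in no comparison.

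Colec12, C4b, Cd93 and Itgam were among the complement genes called higher in RXR-deficient than in control mAMs. Cd93 was at 158, 90.2, 271 and 126 CPM in RXR-deficient mAM replicates 1 to 4, each above the highest control library, with a difference of 1.99 ± 0.30 (adjusted p = 0.00419) that kept its call in 25 of 25 alternatives. C4b differed by 1.48 ± 0.29 (adjusted p = 0.0173) and lost its call in 5 of 25 alternatives. Among these were the fits without RXR-deficient replicate 1 or 3 or control replicate 2. Colec12 (0.58 ± 0.15, adjusted p = 0.0484) lost its call in 13 alternatives and Itgam (0.90 ± 0.23, adjusted p = 0.0479) in 14, most of them by leaving out 1 library, whichever the group. RXR-deficient replicate 3 had the highest Cd93 and Itgam of this group, besides the highest C3ar1.

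**Figure D4:**
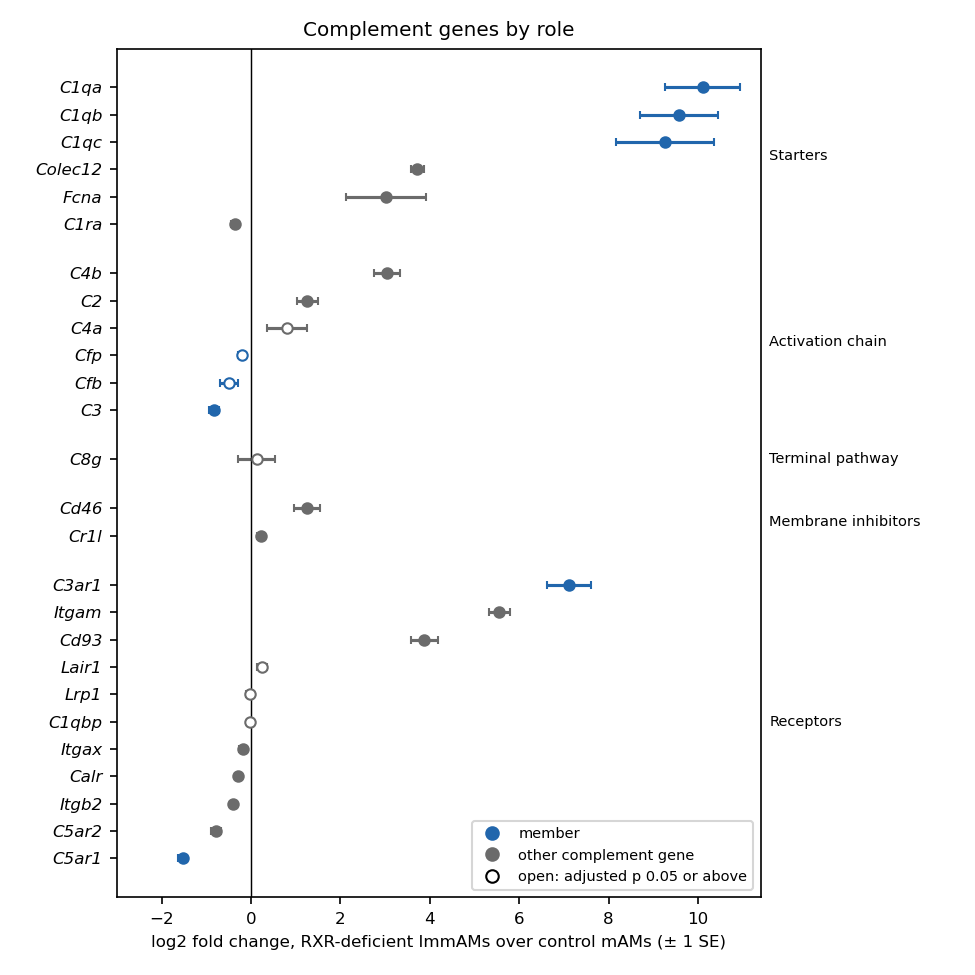
Log2 differences between RXR-deficient ImmAMs and control mAMs for the 8 members and 18 other complement genes in the table, by role, with bars of 1 SE. Filled points passed an adjusted p of 0.05. The C1q genes, C3ar1 and Itgam, which was in the gate, lay above 5, and the C5a receptor genes C5ar1 (-1.53) and C5ar2 (-0.79) lay lowest among the receptors.

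Genes within 50 kb of a member were also examined. Besides complement genes, 19 passed the filter. Of these, 6 were higher and 2 lower in ImmAMs than in control mAMs, or 42.1% against 48.1% of all genes. The only protein-coding neighbours of the C1q cluster in that distance, Epha8 and Ephb2, were not in the table. All 3 tested neighbours of C3ar1 were called higher in ImmAMs, as C3ar1 was, where 22.8% of all genes tested were. Slc2a3, a glucose transporter, differed by 2.74 ± 0.43 (adjusted p = 0.000162) and Necap1 by 0.80 ± 0.10 (adjusted p = 1.71e-05). Foxj2, 1772 bases from C3ar1, was at 100 to 122 CPM in ImmAMs against 64.4 to 75.7 CPM in control mAMs (0.68 ± 0.09, adjusted p = 2.99e-05). Tnfsf14, 9793 bases from C3, was higher (5.23 ± 0.39, adjusted p = 2.30e-07) where C3 was lower, at 13.7 to 14.99 CPM against 0.244 to 0.614 CPM. Trip10, also near C3, and Bbc3, near C5ar1, were higher, by 0.42 and 1.01 (adjusted p = 0.0311 and 0.000564). Skiv2l, near Cfb, was lower (-0.28 ± 0.08, adjusted p = 0.0117). Syn1, 4450 bases from Cfp, was 3.13-fold lower (-1.65 ± 0.12, adjusted p = 2.49e-07).

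Genes with the most similar profiles over the 10 fitted libraries were found by the root mean square difference of centred log2 CPM, among genes averaging at least 5 CPM. Among those closest to the mean of the C1q genes were Lat2 (0.878), Pianp (1.23), Camk2n1 (1.27) and Rasgrp1 (1.28). Among those closest to C3ar1 was Rasgrp1 (0.660). Closest to C5ar1 were Rassf5 (0.0875), Hspa12a (0.0932) and Cpt1a (0.108), the last of which carries fatty acids toward mitochondrial oxidation. Closest to C3 were Tecpr2 (0.117), Lrp8 (0.129) and Frmd4a (0.133). Cfb was nearest to Cdc42ep2 (0.162), Smpdl3b (0.188) and Tnfaip3 (0.189), and Cfp to Cd300lg (0.0910), Rgl1 (0.0982) and C2cd2 (0.108). These distances describe the libraries and were not tested.

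Some markers of other cells were higher in ImmAMs, beside the members that rose. Interstitial macrophage markers, of which 7 of 12 were in the table, summed to 8.42 to 10.1 CPM in control mAMs, 12.9 to 22.6 CPM in RXR-deficient mAMs and 238 to 253 CPM in ImmAMs. Cx3cr1 gave 110 to 124 CPM of the ImmAM sum, while Lyve1, Folr2, Tmem119, Cd4 and Ccl12 were not in the table. Of the 7, 6 were higher in ImmAMs than in every mAM library and 0 were lower. Among these 6, Cd163 (1.65 to 2.91 CPM), F13a1 (1.55 to 2.12 CPM) and Pf4 (1.79 to 2.34 CPM) were low in ImmAMs. Ms4a7 (7.90 to 9.48 CPM in ImmAMs) overlapped the mAM libraries. Monocyte markers (7 of 10) summed to 300 to 391, 384 to 595 and 878 to 954 CPM, mainly from Itga4, and Ly6c2 was not in the table. Ccr2 and Itga4 were among those higher in ImmAMs than in every mAM library, Treml4 was lower (2.85 to 3.49 CPM against 39.8 to 50.7 CPM in control mAMs), and Vcan, Ace and Nr4a1 overlapped the mAM libraries. Neutrophil markers (7 of 10) summed to 55.8 to 63.5, 114 to 341 and 904 to 977 CPM, of which Mmp8 gave 851 to 914 CPM in ImmAMs, while Ly6g was not in the table. The study counts Mmp8 among the core AM genes. Of the 7 neutrophil markers, 4 were higher in ImmAMs than in every mAM library and 0 were lower. Beside Mmp8 these were S100a8, Csf3r and Ltf. S100a8 was at 10.7 to 16.6 CPM in ImmAMs and at most 7.27 CPM in mAMs. Csf3r was at 33.5 to 36.2 CPM against at most 33.1 CPM, and Ltf at 1.077 to 1.997 CPM against at most 0.832 CPM. S100a9 (1.55 to 3.84 CPM in ImmAMs), Cxcr2 (3.84 to 5.13 CPM) and Retnlg (0.580 to 2.295 CPM) overlapped the mAM libraries. Dendritic cell markers (3 of 8) reached 23.2 to 25.2 CPM in ImmAMs. They summed to 5.92 to 7.89 CPM in control mAMs and 6.82 to 9.07 CPM in RXR-deficient mAMs. Club and ciliated cell markers (2 of 4) reached 258 to 266 CPM in ImmAMs, nearly all from Tppp3. Their sums were 110 to 177 CPM in control mAMs and 150 to 232 CPM in RXR-deficient mAMs. RXR-deficient mAM replicate 3 had the highest monocyte and neutrophil sums of the mAM libraries. The part of these cells in the C1q and C3ar1 results was not tested. No marker of T cells, NK cells, eosinophils, endothelium or fibroblasts was in the table. B cell markers (1 of 4) stayed at or below 1.60 CPM and erythroid ones (3 of 4) at or below 9.55 CPM, and the type 2 marker present, Abca3, was at 142 to 170 CPM in all libraries. Alveolar macrophage markers (12 of 12) summed to 22184 to 28371 CPM in control mAMs, 26484 to 32910 CPM in RXR-deficient mAMs and 24931 to 26737 CPM in ImmAMs, a sum carried by Chil3 (20272 to 21939 CPM in ImmAMs). Of the 12, 9 were lower in the ImmAM libraries than in every mAM library, namely Siglecf, Marco, Car4, Ear2, Fabp4, Cidec, Krt79, Itgax and Mrc1. Ear2, for example, was at 74.2 to 83.5 CPM against 1950 to 2309 CPM in control mAMs, and Marco at 10.9 to 13.8 CPM against 310 to 377 CPM. Chil3, Plet1 and Pparg lay within the range of the mAM libraries, and no marker of this list was higher in ImmAMs than in every mAM library.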

How the data were processed

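Total RNA of sorted AMs was sequenced as single-end reads of 60 bases from directional libraries. The labels describe lung digestion, the methods bronchoalveolar lavage, and the labels name both a HiSeq-2500 and a NextSeq2000. Per the paper's methods and the submitters' processing notes (cutadapt, RSEM 1.3.1, limma, GRCm38), the authors trimmed reads, quantified transcripts, normalized by TMM and kept genes at 1 CPM in at least 3 samples. The deposited values are CPM on TMM-scaled libraries. Every value divided by its library's step gave whole reads within 0.01 (100% of values).

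Log2 CPM of 10 libraries (control mAM replicates 1 to 4, RXR-deficient mAM 1 to 3, ImmAM 2 to 4) were fitted as 3 group means in limma 3.58.1 (R 4.3.3, eBayes with trend, two-sided, no further pseudocount) over genes at 1 CPM in at least 3 libraries, with Benjamini-Hochberg adjustment over all genes. In simulated data the fit recovered known changes planted between the mAM groups. Changes in ImmAMs, or in genes with few reads, were not planted. edgeR 4.0.16 and DESeq2 1.42.0 served as alternatives on recovered reads. The design text calls the samples individual biological replicates. Ratios of summed reads carry exact binomial 95% intervals. Exon lengths came from GENCODE vM21, upstream windows from RefSeq (GRCm38.p6). Other genes were named by rule: the list ordered by role (values where called with at least 5 CPM, or at 50 CPM), neighbours within 50 kb, nearest profiles (5 for C1q, 3 for each other member), Rxra and Rxrb. Some genes that these rules name are not reported here. Rules, members and lists were chosen with earlier results of these data known, and the study's own text already names the C1q genes, so they are no independent evidence.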

Additional observations from a re-analysis of the deposited data

Results flagged for a closer look

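Among the control mAM libraries, C1qa was far above the rest in replicate 4 (0.0737 CPM, a gap of 0.886 of the group's range) and C1qc in replicate 3 (0.131 CPM, 0.904 of the range). These values stand for 1 and 3 reads. About 1 in 20 groups of normally distributed values would be marked in this way by chance. That rate does not hold here, where the other control libraries held no read of the gene.

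RXR-deficient mAM replicate 4, which was left out of the fit reported, was above every control mAM library for C1qa (0.344 CPM, 7 reads), C1qb (0.160 CPM, 3 reads), C3ar1 (1.58 CPM) and Cfp (185 CPM).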

How the results depend on the processing

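Of 25 alternatives for each of the 8 members, all 200 results between ImmAMs and RXR-deficient mAMs and 194 of 200 between ImmAMs and control mAMs kept direction and side of the threshold. The other 6 added a call for Cfb (5) or Cfp (1). These alternatives leave out the fold limit: with a fold of at least 1.5 required, 6 members rather than 7 were called between ImmAMs and RXR-deficient mAMs, Cfp being lost. Between the mAM groups, edgeR and DESeq2 each called 1 member (C1qa), and 11 of 200 results turned in direction, none of them called. The count of genes called between the mAM groups was the least stable. Against 624 in the report, it was 315 at a fold of at least 1.5, 338 with all 11 libraries, 195 with only those groups, 122 without a trend, 1352 in DESeq2, and 163 to 861 when 1 library was left out, lowest without RXR-deficient replicate 3 and highest without control replicate 1. It fell by over 1.5 times without any 1 ImmAM library (351 to 385), without RXR-deficient replicate 1 (210), or without control replicate 2 (220), 3 (327) or 4 (350). At a fold of at least 1.5, 3438 genes were called between ImmAMs and control mAMs and 2800 between ImmAMs and RXR-deficient mAMs. Why these counts moved was not tested, beyond the stricter rule that a fold limit sets.

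Replicate numbers were shared by the labels, but deviations of same-numbered libraries correlated by only -0.13 to 0.06 (8 pairs), against -0.15 to 0.21 for other pairs, so they were not taken as pairs. Most of these 8 pairs cross genotypes and so cannot share a mouse. RXR-deficient ImmAM and mAM libraries correlated by 0.059 for replicates 2 and -0.033 for replicates 3. Whether they came from the same mice cannot be told from these values. With the replicate block, 174 genes were called between the mAM groups, Cfb was called lower in ImmAMs than in control mAMs (-0.33, adjusted p = 0.0150), and C3 between the mAM groups was -0.023 and C8g between ImmAMs and control mAMs -0.0052. The block also ended the calls of Colec12 and Itgam between the mAM groups and of Cr1l, Itgax and Trip10 between ImmAMs and control mAMs, and changed no other call of a named gene. On the reads recovered from the CPM, edgeR called 566 genes between the mAM groups, 6094 between ImmAMs and control mAMs and 4804 between ImmAMs and RXR-deficient mAMs.

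No difference that changed sign was called. Between the mAM groups with all 11 libraries, C3 was -0.096, Itgb2 0.035 and Slc2a3 0.0499, and Slc2a3 was 0.0053 and 0.0098 with a pseudocount of 0.5 and 1 CPM, 0.035 in edgeR and 0.029 in DESeq2. With 1 library left out, the ranges between the mAM groups were -0.15 to 1.64 for C1qb, -0.082 to 0.12 for C3, -0.0204 to 1.17 for C3ar1, -0.063 to 0.091 for C5ar1, -0.39 to 0.032 for Cfb, -0.0300 to 0.18 for C1ra, -0.12 to 0.0013 for C5ar2, -0.033 to 0.016 for Itgb2, -0.49 to 0.298 for Slc2a3, -0.0704 to 0.20 for Bbc3 and -0.048 to 0.049 for Rxra. Between ImmAMs and control mAMs, C8g was -0.18 after quantile normalization and -0.061 to 0.32 with 1 library left out, C1qbp -0.047 to 0.0036 and Lrp1 -0.076 to 0.032. Between ImmAMs and RXR-deficient mAMs these ranges were -0.023 to 0.073 for Cr1l and -0.049 to 0.16 for Lair1. C1q levels in mAMs were limited by depth, with at most 16 C1q reads in a library.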
